A study of Mus musculus with 2 samples.

Results

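The early growth response genes *Egr1*, *Egr2*, *Egr3* and *Egr4* and the genes of their corepressors, *Nab1* and *Nab2*, are 6 of the 32285 genes counted in this single-cell RNA-sequencing study of hippocampal Cajal-Retzius (CR) cells. They were taken by gene symbol and were chosen by an earlier reading of these data, in which *Egr1* stood low in the knockout and lower still in knockout cells with transcripts of *Etv4* or *Etv5*. Those contrasts are therefore given below as descriptions.

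The study asked how loss of the transcriptional repressor Capicua (CIC) changes CR cells, the reelin-secreting neurons of which most die in the first postnatal weeks. Hippocampi were taken at postnatal day (P) 14 and dissociated with papain. Live cells carrying the tdTomato reporter were then sorted and captured with the 10x 3' chemistry. Fewer knockout than control cells were recovered, and the paper proposes that knockout cells may be more vulnerable to these steps. The control library pooled 4 *ΔNp73-Cre; Cic flox/+; tdT* mice (3 males and 1 female), and the knockout library pooled 2 males and 2 females of the genotype *ΔNp73-Cre; Cic flox/flox; tdT* from the same litters. Both groups thus carried the Cre driver, the reporter and at least 1 floxed *Cic* allele, and the control cells were conditional heterozygotes, not wild type. *ΔNp73-Cre* acts from the progenitors of CR cells onward, and the study's own staining found that some CR cells of the knockout line keep CIC. With 1 library per genotype there was no replicate and no significance test.

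A unique molecular identifier (UMI) marks 1 captured RNA molecule. CR cells were taken as barcodes with at least 2000 UMIs and at least 5 UMIs of *Reln*, which gave 1003 control cells (median 6224 UMIs, range 2012 to 31769) and 390 knockout cells (median 6664 UMIs, range 2769 to 33453). All 10 CR markers examined, among them *Reln*, *Trp73* and *Calb2*, were detected in 25% or more of each library's cells. No other list of 7 markers had more than 1 gene at that share, and that gene was *Rgs5* of the endothelial and mural list. Levels are counts per 1000000 UMIs of the group outside mitochondrial and ribosomal protein genes (CPM). Values in parentheses after a level, ratio or share are 95% exact intervals, which cover counting error only and not the spread between mice. For levels and ratios they also leave out the uneven spread of UMIs over cells.

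EGR proteins are zinc-finger transcription factors that bind GC-rich DNA. Their genes are immediate early genes: synaptic activity and growth factors act through ERK and calcium signaling on serum response factor, ELK factors and CREB at their promoters, and the transcripts appear and disappear quickly. NAB1 and NAB2 bind EGR proteins and recruit the NuRD chromatin complex, and *Nab2* is itself induced by EGR proteins, which closes a negative feedback loop. CIC is a repressor that ERK signaling inactivates. *Etv4* and *Etv5*, which encode ETS factors, are among its best known targets, and their transcripts are used here as a readout of lost repression in single cells.

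Short elements of the promoters show matches to the motifs that these inputs bind, and binding in these cells was not measured. They are printed because the early response inputs and the EGR feedback are what the comparisons below ask about. The windows ran from 250 bases before to 50 bases after each RefSeq start on GRCm38.p6. Of the 6 genes, 4 had an entry (*Egr2*, *Egr4*, *Nab1* and *Nab2*). No sequence is therefore shown for *Egr1*, the main gene of the comparisons below. Capitals mark the matched motif: the CArG box, which serum response factor binds, the CRE half-site ACGTCA, which CREB binds, or the EGR site, written GCGTGGGCG or GCGGGGGCG on either strand. Each sequence is given 5' to 3' on the gene's strand.
Egr2 CArG box: ttcctcagtCCATATATGGgcagcgacg
Egr2 CRE half-site: tgggcagcgACGTCAcgggtattg
Egr4 CRE half-site: gcggcagcaACGTCAcaggccgag
Nab1 EGR site: ccccgcggcCGCCCACGCcgggatctg

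The *Egr2* elements shown lay at chr10:67537788-67537815 and chr10:67537804-67537827 on the plus strand. These stretches, which include 9 flanking bases on each side, overlap each other, but the motifs in capitals do not. Both lay in an annotated intron of *Egr2*, upstream of 3 of its 5 RefSeq starts. A further CArG box, CCTTTTTTGG, lay within chr10:67537485-67537512 in the window of another *Egr2* start. The *Egr4* element lay upstream of the gene at chr6:85513753-85513776 on the minus strand and was 1 of 2 CRE half-sites in its window. The *Nab1* element lay in an annotated exon at chr1:52500572-52500598 on the minus strand and was 1 of 3 EGR sites in its window. The *Nab2* window held none of these motifs. Across all 32851 RefSeq windows of this length, 3.47% held an EGR site, 7.51% a CRE half-site and 1.63% a CArG box. The CIC octamers TGAATGAA and TGAATGGA, found in 2.47% of all windows, had no match in the windows of the 4 genes.

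*Egr1* (ENSMUSG00000038418), the member best known as a marker of recent neuronal activity, was lower in the knockout library. Cells were dissociated and sorted before capture. The part of these steps in the levels of *Egr1* and of other early genes was not tested. The control cells held 664 *Egr1* UMIs, or 101 CPM (93.1 to 109). The knockout cells held 113 UMIs, or 40.9 CPM (33.7 to 49.1). These intervals did not overlap, and the ratio of knockout to control was 0.406 (0.330 to 0.497), a log2 ratio of -1.30. *Egr1* was chosen for its low level in the knockout, so its rank is a description. Among the 9442 genes with at least 100 UMIs in both libraries together, 5 genes had a lower ratio than *Egr1*. In this comparison 1.66% of those genes were at least 1.5-fold lower in the knockout and 2.73% were at least 1.5-fold higher, with a median log2 ratio over all of them of 0.01. Of the 6 members, 2 reached 100 UMIs, *Egr1* and *Nab1*, and 1 of them was past 1.5-fold.

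**Figure D1:**
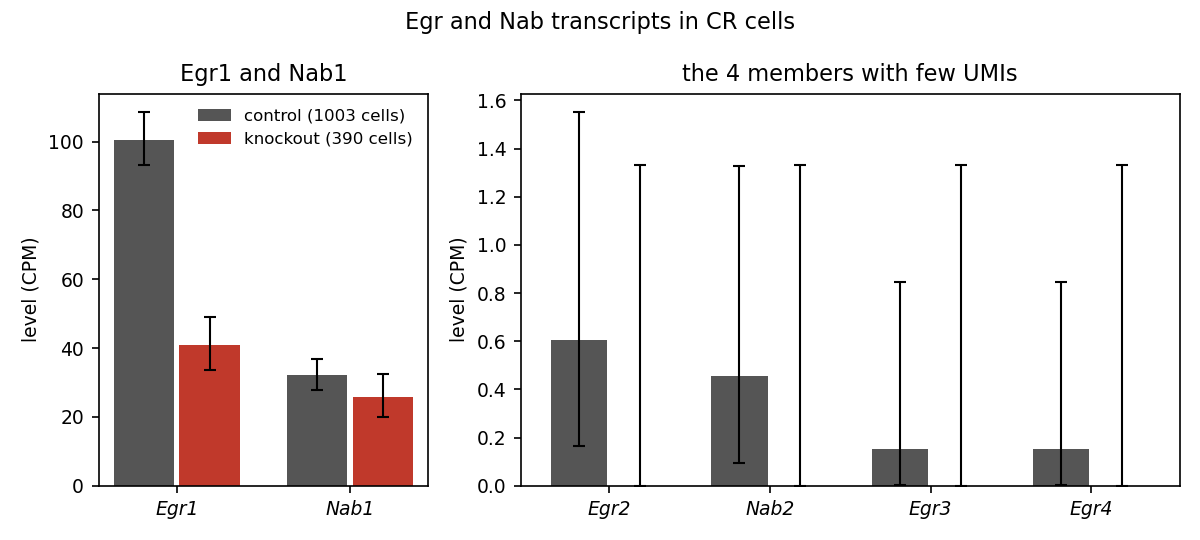
Level of each member in CPM in all control and knockout CR cells, with bars for the level and lines for the 95% exact interval. *Egr1* stands at 101 and 40.9 CPM, the intervals of *Nab1* overlap, and the 4 genes on the right (drawn on a smaller axis) were not detected in the knockout.

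Fewer knockout cells held *Egr1* at all. A UMI of *Egr1* was found in 272 of the control cells, or 27.1% (24.4 to 29.98), and in 44 of the knockout cells, or 11.3% (8.32 to 14.8). With every cell thinned to 2000 UMIs the expected shares were 12.4% and 4.86%. Droplets of 20 to 100 UMIs, which hold free RNA and no cell, had an *Egr1* UMI in 1.93% of cases in the control library (median 89 UMIs) and in 0.671% in the knockout library (median 44 UMIs).

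The difference ran through every class of cells by *Egr1* count. Of the control cells, 151 held 1 UMI, 90 held 2 to 4 and 31 held 5 or more. Of the knockout cells these were 26, 14 and 4. A few bright cells carried much of the total in both libraries. Cells with at least 5 UMIs gave 43.5% of the control UMIs and 48.7% of the knockout UMIs. The brightest control cell held 30 UMIs, and the brightest knockout cell held 19 UMIs, or 16.8% of that library's *Egr1*. Without the brightest cell of each library the ratio was 0.355 (0.283 to 0.442), and without the 5 brightest of each it was 0.232 (0.172 to 0.307), a step that takes a larger share of the smaller knockout library.

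**Figure D2:**
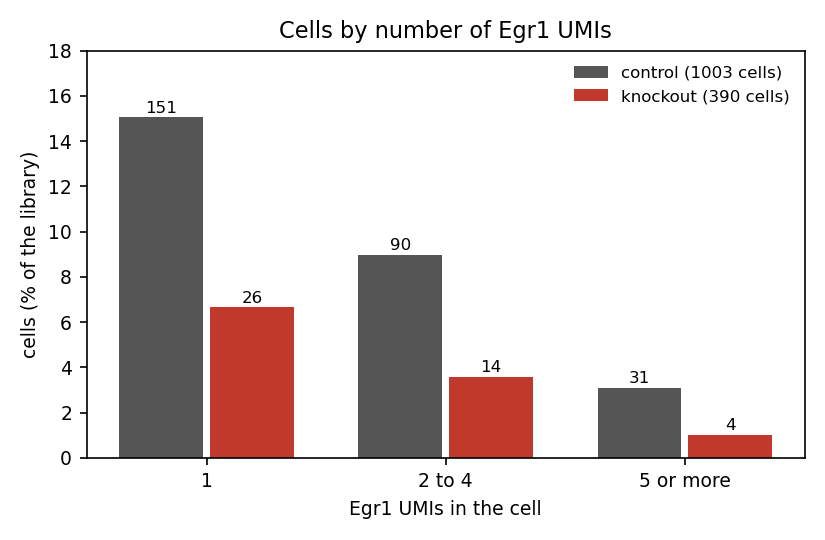
Percent of the cells of each library (vertical axis) that held 1, 2 to 4, or 5 or more *Egr1* UMIs (horizontal axis), with the number of cells above each bar. The share was lower in the knockout in each of the 3 classes, with 31 control and 4 knockout cells at 5 or more UMIs.

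Free RNA held *Egr1* at a higher level than the cells did. Droplets of 20 to 100 UMIs had 271 CPM (249 to 294) in the control library and 186 CPM (171 to 202) in the knockout library. A droplet held on average 0.0203 and 0.00747 *Egr1* UMIs, so that the same load in every cell would give 20.4 of the 664 control UMIs and 2.91 of the 113 knockout UMIs. With this load subtracted the ratio was 0.406, and with free RNA set at 5% of each cell's UMIs it was 0.362. Fainter barcodes, with 500 or more but under 2000 UMIs and at least 2 *Reln* UMIs, held 13 *Egr1* UMIs in 127 control barcodes, or 121 CPM. In 21 such knockout barcodes there were 0, which allows up to 201 CPM. The barcodes just outside the rule, with at least 2000 UMIs but under 5 *Reln* UMIs, held 15 *Egr1* UMIs in 16 knockout barcodes, or 317 CPM (177 to 522), and 0 in 8 control barcodes.

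*Egr1* lies on the plus strand of chromosome 18 of GRCm38 from 34859823 to 34864984. No other annotated gene overlaps it, nor *Egr2*, *Egr3*, *Egr4* or *Nab1*.

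Knockout cells were then divided by the readout of lost repression. At least 1 UMI of *Etv4* or *Etv5* was found in 162 of the 390 knockout cells (41.5%) and in 87 of the 1003 control cells (8.67%). *Etv4* stood at 1.97 CPM in control cells against 70.9 CPM in knockout cells, a ratio of 35.985 (20.6 to 68.8), and *Etv5* at 15.0 and 70.9 CPM, a ratio of 4.73 (3.69 to 6.08). *Cic* itself stood at 58.9 and 51.3 CPM, with a ratio of 0.871 (0.714 to 1.06). A 3' count of *Cic* does not show whether the floxed exons were deleted, so these levels do not check the genotype.

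Within the knockout library, *Egr1* was lower in the cells with an *Etv4* or *Etv5* UMI than in those without. These 162 cells held 15 *Egr1* UMIs, or 12.2 CPM (6.83 to 20.1), and none of them held more than 3. The 228 knockout cells without such a UMI held 98 *Egr1* UMIs, or 63.7 CPM (51.7 to 77.7), with up to 19 in a cell. Of these 228 cells, 4 held 56.1% of the 98 UMIs. The shares of cells with *Egr1* were 5.56% (2.57 to 10.3) with and 15.4% (10.9 to 20.7) without an *Etv4* or *Etv5* UMI. The ratio of the level in cells with to that in cells without was 0.192 (0.103 to 0.332). It was the lowest of the 5226 genes with at least 100 UMIs in this comparison. This rank is a description, since *Egr1* was chosen for its low level in such cells. *Egr1* passed the limit of 100 UMIs, with 113, mostly through the 98 UMIs of the cells without. Of the 5226 genes, 1.95% were at least 1.5-fold lower and 3.02% at least 1.5-fold higher. *Egr1* was the only member that reached 100 UMIs there.

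Over all knockout cells, those with an *Etv4* or *Etv5* UMI were the deeper ones, with a median of 7266 against 6210 UMIs. This held in female knockout cells (7312 against 5859) but not in male ones (6805.5 against 7250.5). After thinning to 2000 UMIs the expected shares of knockout cells with *Egr1* were 2.00% with and 6.89% without such a UMI. Among knockout cells between the lower and upper quartile of depth the ratio was 0.148 (0.0287 to 0.481). Free RNA at 5% of a cell's UMIs would give 9.31 CPM of *Egr1*, most of the level in the cells with an *Etv4* or *Etv5* UMI. The load of a mean droplet would give 1.21 of their 15 UMIs.

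Whether the level of *Egr1* falls step by step with the number of *Etv4* and *Etv5* UMIs cannot be told from these counts. In the knockout it was 63.7 CPM in the 228 cells with none, 16.8 CPM (7.26 to 33.1) in the 67 cells with 1, 7.89 CPM (0.956 to 28.5) in the 36 cells with 2 and 10.0 CPM (3.25 to 23.4) in the 59 cells with 3 or more. The intervals of the last 3 classes overlap, and all lie below that of the cells with none. These 3 classes held only 8, 2 and 5 *Egr1* UMIs, and free RNA at 5% of UMIs would give 9.31 CPM. A further fall among them could therefore not be judged. By gene, *Egr1* stood at 8.12 CPM in the 106 knockout cells with *Etv4* and at 15.0 CPM in the 116 with *Etv5*.

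Over all control cells, the same division gave no difference beyond counting error. *Egr1* stood at 123 CPM (97.7 to 152) in the 87 control cells with an *Etv4* or *Etv5* UMI and at 98.1 CPM (90.3 to 106) in the 916 without. The ratio was 1.25 (0.981 to 1.58), on the other side of 1 from the ratio in the knockout, and the difference between these ratios was not tested. In this comparison 7.85% of 8304 genes were at least 1.5-fold lower and 3.07% at least 1.5-fold higher, and *Egr1* and *Nab1*, the members with 100 UMIs, were in neither class. Only 16 control cells held 2 such UMIs and 4 held 3 or more, with 3 and 11 *Egr1* UMIs.

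**Figure D3:**
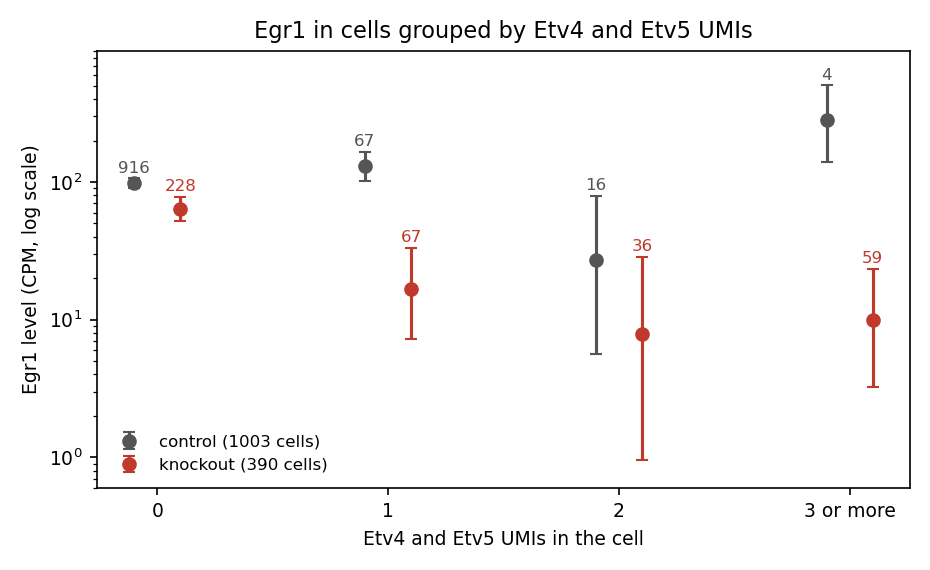
*Egr1* level in CPM (vertical axis, log scale) in cells grouped by their number of *Etv4* and *Etv5* UMIs (horizontal axis), with 95% exact intervals and the number of cells at each point. In the knockout the level was 63.7 CPM in cells with none and at most 16.8 CPM in the other 3 classes. The control cells with none and with 1 stood at 98.1 and 131 CPM. The 16 control cells with 2 stood at 27.1 CPM (5.60 to 79.3), an interval that overlaps those of these 3 knockout classes. The 4 control cells with 3 or more stood at 282 CPM (141 to 504), with 81.8% of their *Egr1* UMIs in 1 cell.

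Knockout cells without an *Etv4* or *Etv5* UMI lay between the other groups. Their 63.7 CPM was 0.634 (0.507 to 0.784) of the level of all control cells, while the cells with a UMI were at 0.121 (0.0676 to 0.202) of it. Some cells without a UMI will have held *Etv4* or *Etv5* transcripts that were not captured, and their number was not estimated. The study's staining, at a later age, found CIC lost from most CR cells of this line. Lack of a UMI therefore does not mark a cell that kept CIC.

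The sex of each cell was assigned by UMIs of *Xist* or of 4 Y-linked genes, which gave 702 male and 227 female control cells and 194 male and 176 female knockout cells. All female control cells came from 1 mouse, so sex and mouse cannot be told apart there. In male cells *Egr1* stood at 94.4 CPM (control) and 49.0 CPM (knockout), a ratio of 0.519 (0.398 to 0.669). In female cells it stood at 134 and 35.1 CPM, a ratio of 0.262 (0.184 to 0.367). A single female knockout cell held 44.2% of the *Egr1* UMIs of the female knockout cells. *Egr1* was thus lower in the knockout in each sex, by amounts whose intervals do not overlap, and the difference between the sexes was not tested.

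The division by *Etv4* and *Etv5* gave like ratios in both sexes of the knockout, 0.209 (0.0914 to 0.424) in male cells and 0.171 (0.0589 to 0.408) in female cells. The cells without a UMI differed more. In male cells without an *Etv4* or *Etv5* UMI the ratio of knockout to control was 0.810 (0.608 to 1.06), an interval that includes 1. Of the 116 knockout cells there, 3 held 59.0% of the *Egr1* UMIs. In the corresponding female cells the ratio of knockout to control was 0.438 (0.299 to 0.626). Of the 98 knockout cells there, 1 held 51.4% of the *Egr1* UMIs. Within the control, the ratio of cells with to cells without such a UMI was 1.42 (1.09 to 1.83) in male cells, an interval above 1. However, 4 of the 72 male control cells with such a UMI held 56.9% of their *Egr1* UMIs. The shares of male control cells with *Egr1* were 30.6% (20.2 to 42.5) with and 25.2% (21.9 to 28.8) without such a UMI. These intervals overlap. In female control cells, 12 of which held such a UMI, the ratio was 0.927 (0.437 to 1.74).

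CR cells vary among themselves, and *Egr1* was lower in the knockout in each group examined. The cells in which nuclear genes of the respiratory chain made up at least 1.5% of UMIs, 102 control and 41 knockout cells, had the highest levels. They stood at 217 CPM in control against 108 CPM in knockout cells, with a ratio of 0.499 (0.361 to 0.678), and were deeper than the rest, with medians of 13182 and 13104 UMIs. The 51 *Egr1* UMIs of these knockout cells lay in 6 of them. In all other cells *Egr1* stood at 78.2 and 27.0 CPM, a ratio of 0.345 (0.260 to 0.452).

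Among those other cells, subtypes were marked by single genes. In cells with a *Grik1* UMI the control level was 115 CPM and the knockout level 17.6 CPM, a ratio of 0.153 (0.0648 to 0.311). Cells with a *Gabrg3* UMI stood at 75.9 and 29.0 CPM, a ratio of 0.382 (0.266 to 0.534), and those with a *Cck* UMI at 73.1 and 25.3 CPM, a ratio of 0.347 (0.193 to 0.585). In the control the *Grik1* cells were above the *Gabrg3* and *Cck* cells, whose intervals overlap. In the knockout the intervals of all 3 overlap. A cell can hold UMIs of more than 1 of these genes.

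Cells with *Egr1* also held more transcripts of other early response genes. Across cells, the genes most like *Egr1* among 7561 were *Fos*, with Pearson's r of 0.271 in 1003 control cells and 0.274 in 390 knockout cells, *Junb* (0.274 and 0.260) and *Ier2* (0.251 and 0.170). *Fosb*, *Rab6a*, *Ptma* and *Jun* were also among the 8 most alike, each with r between 0.136 and 0.196. *Fos*, *Fosb*, *Jun* and *Junb* encode AP-1 subunits and *Ier2* an early response factor. These correlations are over cells of the same libraries, which share depth, and are weak.

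In the control, 11 of 25 early response genes with enough UMIs were at least 1.5-fold higher in cells with an *Egr1* UMI than in cells without, and none was as much lower. Of all 8303 other genes with at least 100 UMIs there, 7.05% were as much higher and 2.88% as much lower. In the knockout these were 9 of 16 early response genes, again with none lower, beside 5.95% higher and 7.64% lower of 5225 genes. The median ratio of the early response genes was 1.42 (control) and 1.66 (knockout), beside 0.992 and 0.998 for all genes. *Fos* was 2.73-fold higher (2.55 to 2.92) in such control cells and 2.96-fold higher (2.63 to 3.32) in such knockout cells. For *Junb* these ratios were 1.95 and 2.92, and for *Ier2* 2.85 and 3.10. The median depth of cells with and without *Egr1* was 6776 and 6043 UMIs in the control and 6405 and 6706 UMIs in the knockout.

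The other early response genes stood near the same summed level in both libraries. Summed over the 28 of 33 genes with at least 100 UMIs and the 5 below, they made 3637 CPM in control against 3564 CPM in knockout cells, a ratio of 0.980 (0.957 to 1.00). Of all 9442 genes with at least 100 UMIs, 1.66% were at least 1.5-fold lower in the knockout and 2.73% as much higher. Of the 28 early response genes, 3 were as much lower and 1 was as much higher, and their median ratio was 0.934. The 3 were *Ier2*, at 49.2 and 30.4 CPM with a ratio of 0.617 (0.479 to 0.786), *Klf10*, a TGF-beta-induced repressor, with a ratio of 0.660 (0.457 to 0.934), and *Nptx2*, a secreted synaptic pentraxin. *Nptx2* had 97 control and 27 knockout UMIs, or 14.7 and 9.76 CPM. Its ratio was 0.664 (0.417 to 1.03), an interval that includes 1. The 1 was *Gadd45g*, a stress-response gene, with a ratio of 1.67 (1.22 to 2.28).

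*Fos*, the early gene closest to *Egr1* across cells, stood at 538 CPM in control against 504 CPM in knockout cells, a ratio of 0.937 (0.880 to 0.997). *Fosb* had a ratio of 0.825 (0.741 to 0.918). *Dusp1*, an ERK and p38 phosphatase, and *Sik1*, a salt-inducible kinase, had ratios of 1.19 (1.09 to 1.29) and 1.17 (1.06 to 1.30). *Egr1*, chosen for its low level in the knockout, had a lower ratio than each of the 28.

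**Figure D4:**
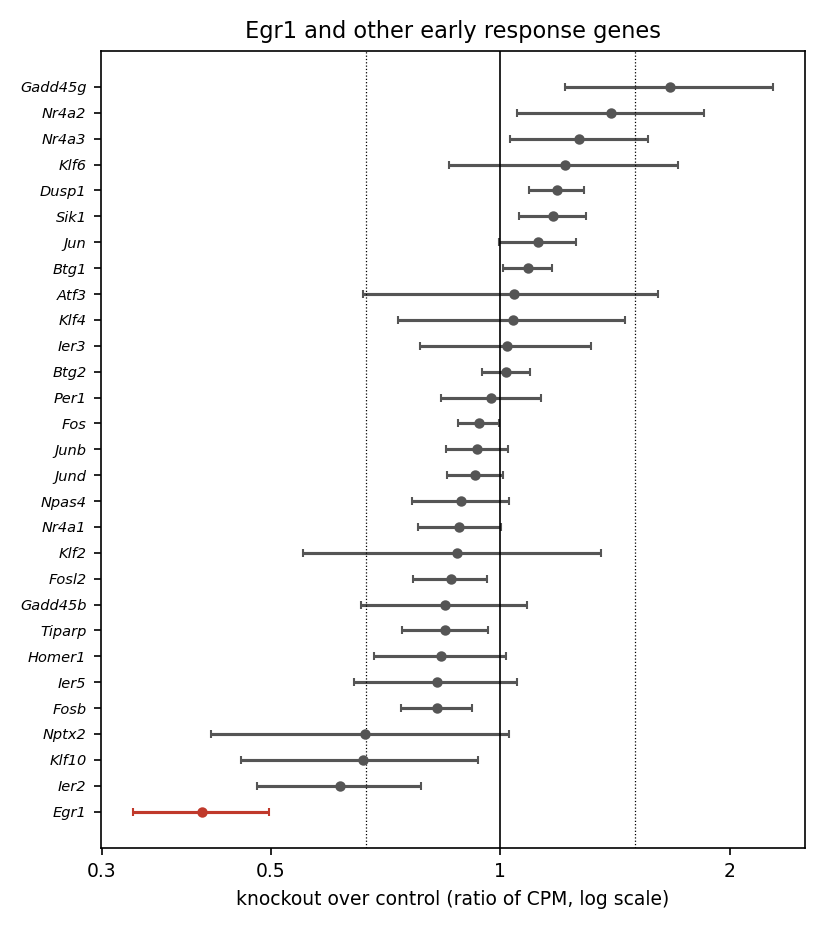
Ratio of knockout to control CPM (horizontal axis, log scale) for *Egr1* and the 28 other early response genes with at least 100 UMIs, with 95% exact intervals. The solid line marks equal levels and the dotted lines a 1.5-fold difference, and *Egr1* at 0.406 lies to the left of all others.

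To compare cells with a like early response, cells were placed by their summed level of the 33 other early response genes into the quartiles of the control cells. The knockout cells filled these classes evenly, with 98, 96, 93 and 103 cells. In the control, *Egr1* stood at 39.4 CPM in the lowest class, 58.4 and 76.3 CPM in the next 2 and 214 CPM in the highest. In the knockout it was 14.7, 11.98, 27.7 and 100 CPM. The ratio of knockout to control was 0.373 (0.170 to 0.732), 0.205 (0.0861 to 0.421), 0.363 (0.208 to 0.598) and 0.469 (0.363 to 0.601), below 1 in each class, with overlapping intervals.

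**Figure D5:**
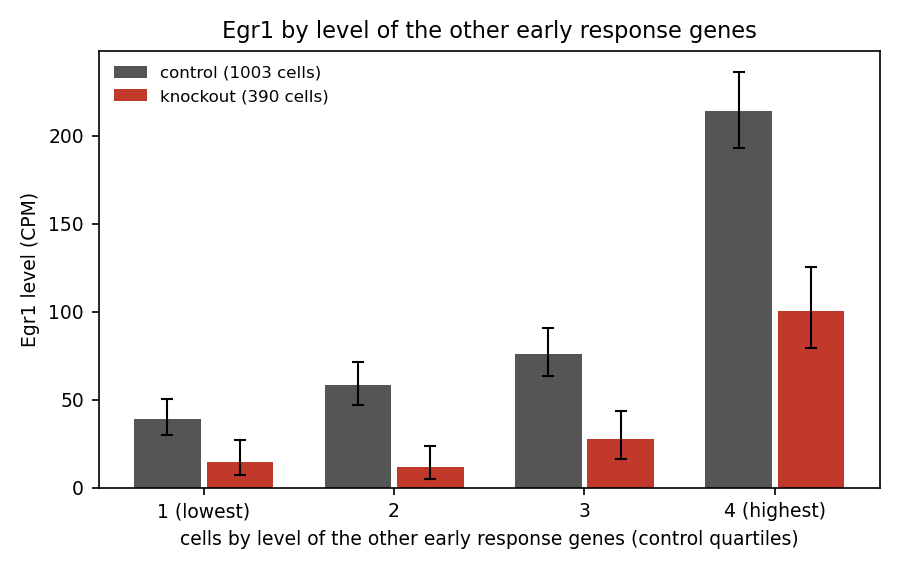
*Egr1* level in CPM (vertical axis) in cells grouped by their summed level of the other early response genes (horizontal axis, quartiles set in the control cells), with 95% exact intervals. *Egr1* was highest in the top class, at 214 CPM (control) and 100 CPM (knockout), and lower in the knockout in each class.

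Within the knockout, the cells with an *Etv4* or *Etv5* UMI also had somewhat less of the other early response genes, 3302 against 3774 CPM, a ratio of 0.875 (0.840 to 0.911). Of 16 such genes with at least 100 UMIs there, 2 were at least 1.5-fold lower, *Homer1* (0.516, 0.348 to 0.753) and *Npas4* (0.615, 0.467 to 0.804), and none was as much higher. Of all 5226 genes in this comparison, 1.95% were as much lower and 3.02% as much higher. *Homer1* encodes a postsynaptic scaffold and *Npas4* an activity-dependent transcription factor. Of the 3 genes most like *Egr1* across cells, *Fos* had a ratio of 0.818 (0.733 to 0.912) and *Junb* of 0.718 (0.607 to 0.848). *Ier2* had 22 against 62 UMIs, under the limit of 100, and a ratio of 0.444 (0.260 to 0.733). Without the cells in the top early response class, the *Egr1* ratio between cells with and without an *Etv4* or *Etv5* UMI was 0.346 (0.136 to 0.779). In the control, cells with such a UMI had a higher sum of the other early response genes, 4271 against 3565 CPM, a ratio of 1.20 (1.15 to 1.25). The genes were mixed, however. Of 25 with at least 100 UMIs there, 3 were at least 1.5-fold lower and 3 as much higher. Over all 8304 genes of that comparison, 7.85% were as much lower and 3.07% as much higher.

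The remaining EGR genes were almost absent. *Egr2* (ENSMUSG00000037868), known for its role in Schwann cell myelination and hindbrain patterning, had 4 UMIs in the control. *Egr3* (ENSMUSG00000033730), known from muscle spindle development, and *Egr4* (ENSMUSG00000071341) had 1 UMI each. *Nab2* (ENSMUSG00000025402), the EGR-induced corepressor, had 3. These 9 UMIs lay in 8 control cells, and 5 of the 8 also held *Egr1*. None of the 4 genes had a UMI in the 390 knockout cells, where 3 UMIs would have been 1.08 CPM and 3 cells of 390 would have been 0.769%. The exact upper bound of the share at 0 of 390 cells is 0.941%. With so few control UMIs no ratio is given, and a difference was not detectable at this depth. Free RNA in droplets of 20 to 100 UMIs held *Egr2* at 1.84 CPM in the control library and 0.658 CPM in the knockout library, and *Nab2* at 1.84 and 0.987 CPM, so the *Egr2* and *Nab2* levels in cells are no higher than in free RNA.

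*Egr2* spans chr10:67535475-67542188 and *Egr3* chr14:70077203-70082614, both on the plus strand of GRCm38, and *Egr4* spans chr6:85511121-85513589 on the minus strand. *Nab2*, at chr10:127660918-127668568 on the minus strand, overlaps *Stat6* in 40 bases as well as *Nemp1* and the antisense gene *Gm16229*, all on the plus strand. Whether the counting used strand is not given in the sources used here, so reads from the overlapping stretches cannot be assigned with certainty. *Stat6* had 17 UMIs in the control cells and 5 in the knockout cells.

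*Nab1* (ENSMUSG00000002881; chr1:52457294-52500679, minus strand), the constitutively expressed corepressor, differed less than *Egr1* did. It had 212 UMIs in the control cells, or 32.1 CPM (27.9 to 36.7), and 71 UMIs in the knockout cells, or 25.7 CPM (20.0 to 32.4). The ratio was 0.799 (0.602 to 1.05), and its interval includes both equality and a decrease of the size of 1.5-fold. A UMI of *Nab1* was found in 16.7% (14.5 to 19.2) of control cells and 16.2% (12.6 to 20.2) of knockout cells, against 0.0999% and 0.0699% of the far shallower droplets. The level of *Nab1* in droplets was 16.5 CPM (11.6 to 22.9) in the control library, below that in cells, and 19.4 CPM (14.8 to 25.04) in the knockout library, where the intervals of droplets and cells overlap. No cell held more than 7 *Nab1* UMIs in the control or 3 in the knockout, so that no small set of cells carried its total.

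*Nab1* showed no difference beyond counting error by *Etv4* and *Etv5*. Within the knockout it stood at 27.7 CPM in cells with such a UMI and at 24.1 CPM in cells without, a ratio of 1.15 (0.7003 to 1.88) with 71 UMIs in all. In the control the ratio was 0.977 (0.591 to 1.54). By sex, the ratio of knockout to control was 0.805 (0.543 to 1.17) in male cells and 0.707 (0.441 to 1.12) in female cells. In the control *Nab1* was higher in cells with an *Egr1* UMI, 45.0 against 26.4 CPM, a ratio of 1.71 (1.28 to 2.26). In the knockout the same ratio was 0.878 (0.363 to 1.84), from 8 UMIs in the cells with *Egr1*. *Nab1* also stood higher in the top early response class of the control, at 44.0 CPM (34.8 to 54.9), than in the lowest, at 19.0 CPM (12.9 to 27.2). In the knockout the corresponding levels were 27.4 and 23.5 CPM.

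The genes that act on EGR promoters, namely serum response factor and its ELK and myocardin-related partners, CREB, the ERK pathway, its RSK and MSK kinases and MEF2 factors, gave 15 of 18 genes with at least 100 UMIs. Over all 9442 such genes, for this list and those that follow, 1.66% were at least 1.5-fold lower and 2.73% as much higher. None of the 15 was past 1.5-fold in either direction, and the median ratio was 0.893. The lowest were the RSK gene *Rps6ka3*, with a ratio of 0.769 (0.662 to 0.890), *Mrtfb*, a cofactor of serum response factor, at 0.769 (0.630 to 0.935), and the MSK gene *Rps6ka5*, at 0.871 (0.781 to 0.970). *Creb1* had a ratio of 1.21 (1.05 to 1.38) and the MEK gene *Map2k1* of 1.18 (0.932 to 1.49). *Srf* itself had only 19 control and 7 knockout UMIs.

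Of 13 reported EGR targets outside the members, 9 had at least 100 UMIs, and 1 of them was past 1.5-fold. That gene was *Vgf*, which encodes a secreted neuropeptide precursor, at 16.1 CPM in control against 64.0 CPM in knockout cells, a ratio of 3.99 (3.12 to 5.12). The study names *Vgf*, like *Etv4* and *Etv5*, as a known target of CIC, and a part of EGR proteins in its level was not tested. Within the knockout *Vgf* was higher in the cells with an *Etv4* or *Etv5* UMI, where *Egr1* was lower, at 96.9 against 37.7 CPM. The cell cycle inhibitor *Cdkn1a* had a ratio of 0.733 (0.577 to 0.923) and the synapsin *Syn2* 0.945 (0.902 to 0.990). The acetylcholinesterase gene *Ache* had a ratio of 1.24 (1.12 to 1.36) and the CDK5 activator *Cdk5r1* 1.13 (0.988 to 1.28). The median ratio of the 9 was 1.06.

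All 14 genes of the NuRD complex, through which NAB proteins repress, had at least 100 UMIs, and none was past 1.5-fold. Their median ratio was 1.04. The methyl-CpG-binding subunits *Mbd3* and *Mbd2* had ratios of 0.676 (0.506 to 0.892) and 0.850 (0.703 to 1.02), and the remodeler *Chd5* 0.896 (0.757 to 1.06). The deacetylases *Hdac1* and *Hdac2* had ratios of 1.47 (1.18 to 1.84) and 1.34 (1.11 to 1.61), and the histone-binding subunit *Rbbp4* 1.29 (1.11 to 1.48).

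Markers of other cell types were low in both libraries. Summed over 7 markers each, the granule and pyramidal neuron list stood at 11.8 CPM in control against 15.9 CPM in knockout cells, with *Neurod2* and *Neurod6* at 0 in both, and the GABAergic list at 2.88 and 1.81 CPM. The microglial list stood at 63.0 and 61.8 CPM and the oligodendrocyte list at 14.4 and 17.7 CPM. The endothelial and mural list stood at 116 and 106 CPM. The astrocyte list stood at 36.7 and 55.0 CPM, mostly from *S100b*, with *Aqp4*, *Gja1* and *Aldh1l1* at 0 in the knockout. The median mitochondrial share was 3.22% of UMIs in control cells and 3.82% in knockout cells, and the part of these markers and of this share in the *Egr1* difference was not tested.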

How the data were processed

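Single-cell RNA was measured in 2 libraries of sorted tdTomato-positive hippocampal cells at P14. The barcodes taken as cells did not overlap between the 2 libraries. The authors deposited raw counts of UMIs for 32285 genes in every barcode, without normalization or cell calling: 16336796 UMIs in the control library and 6777071 in the knockout library. The methods name Cell Ranger with the mm10 reference, the matrix header names Cell Ranger 4 and the submitters' processing notes name version 8.0.1 with mm39. The gene list is that of the mm10 reference. Counting of introns and strand is not given in the sources used here. Positions come from GENCODE M21 on GRCm38 and promoter sequence from RefSeq on GRCm38.p6.

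Cells were barcodes of at least 2000 UMIs and 5 *Reln* UMIs, without doublet removal. At least 1 *Xist* and 1 Y-linked UMI were found together in 16 control and 6 knockout cells. UMIs were summed over cells and divided by those outside 192 genes whose symbols start with mt-, Rpl, Rps or Mrp, 6601724 in the control and 2765943 in the knockout. The Rps prefix also takes the RSK and MSK kinase genes out of this total, but their own levels were computed. Ratios have exact intervals for 2 Poisson counts and shares exact Clopper-Pearson intervals. Shares after thinning are expected values from the hypergeometric distribution. Both kinds of interval cover counting error only. Genes entered the fold counts at 100 UMIs in both groups together. Python 3.11.15, numpy 2.4.6, scipy 1.17.1, pandas 2.3.3 and matplotlib 3.10.9 were used. The ratio intervals were tested on simulated Poisson counts without spread between cells, and the thinning on random draws. The other steps were not simulated.

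The members and lists were chosen with earlier results of these data known. All 6 members, *Cic*, *Etv4* and *Etv5* were named by rule, as were up to 3 genes at each end of each of the 4 lists, ranked by that bound of the ratio's interval which lies nearer to 1. The 8 genes most like *Egr1* were ranked by the lower of the r in the 2 libraries, among genes in at least 10% of cells of each, on log(1 + counts per 10000). *Nptx2*, *Homer1*, *Npas4*, *Junb*, *Fos*, *Ier2*, *Srf* and *Stat6* were otherwise named after their values were seen. A few genes that the rule names are not reported here. Alternatives covered scaling, cell limits, depth, sex, free RNA, bright cells and fold. For doublets, the only alternative left out barcodes with at least 2 *Xist* and 2 Y-linked UMIs, 3 in the control and 1 in the knockout. It cannot see doublets of cells of the same sex.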

Additional observations from a re-analysis of the deposited data

Results flagged for a closer look

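The ratio of *Egr1* between cells with and without an *Etv4* or *Etv5* UMI lay on opposite sides of 1 in the 2 libraries, with a control ratio of 1.25 (0.981 to 1.58) and a knockout ratio of 0.192 (0.103 to 0.332). The control interval includes 1. By sex, the control ratio was 1.42 (1.09 to 1.83) in male cells and 0.927 (0.437 to 1.74) in female cells. In the male control cells with such a UMI, 4 of 72 cells held 56.9% of the *Egr1* UMIs. The difference between the ratios of the 2 libraries was not tested, since cells of 1 library are not replicates.

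The ratio of *Egr1* between female and male cells also lay on opposite sides of 1. It was 1.42 (1.19 to 1.68) in the control, where 1 mouse gave all female cells, and 0.716 (0.478 to 1.06) in the knockout, an interval that includes 1. This difference was not tested either.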

How the results depend on the processing

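With 1 pool of 4 mice per genotype, the spread between mice is unknown, and no ratio has a replicate check. No paired analysis was possible because each group has 1 library. The ratio of *Egr1* between knockout and control was below 1 in all 15 alternatives run. It left the interval of the main value in 4 of them, at 0.519 in male cells, 0.262 in female cells, 0.232 without the 5 brightest cells of each library and 0.309 without cells above the upper early gene quartile. In knockout cells with against without an *Etv4* or *Etv5* UMI, *Egr1* was below 1 in all 12 alternatives and left the interval in 2, at 0.0532 with free RNA at 5% of UMIs subtracted and 0.346 without cells above the upper early gene quartile. The alternatives on the 5 brightest cells, the early gene quartile, the mean droplet and, within the knockout, the 5% of free RNA were chosen after seeing the data. For *Nab1* the 15 ratios between libraries ran from 0.707 to 0.904 and the 12 within the knockout from 0.963 to 1.33, all within the main interval. Thinning to 2000 UMIs lowered the shares of cells with *Egr1* to 12.4% (control) and 4.86% (knockout) and with *Nab1* to 5.75% and 4.56%. At a fold of 2, 0 other early response genes were past the fold in the lower and 0 in the higher direction. The other list counts were the same at 30 UMIs and with all UMIs as the scale, which moved the median log2 ratio of all genes from 0.0061 to 5.0e-05. *Egr2*, *Egr3*, *Egr4* and *Nab2* had too few UMIs for a ratio under any alternative.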
